A study of Caenorhabditis elegans with 2 samples.

Results

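RNT-1 peaks with a RUNX core site were 285 of the 1923 nuclear peaks in the list that the authors cut at a threshold of the irreproducible discovery rate (IDR), which is 14.8%. A peak was a member when TGTGGT or TGCGGT, read on either strand, lay whole within 50 bp of its summit on the genome build ce11. The other 1638 nuclear peaks held no such core there, and none of the 8 mitochondrial IDR peaks did. The series mapped RNT-1 by ChIP-seq in whole hermaphrodite late embryos of Caenorhabditis elegans, 5 h after synchronization by egg bleaching, with age otherwise unknown. Both biological replicates, of 1 library each, came from the same transgenic line, strain OP462 (unc-119(tm4063) III; wgIs462), which stably expresses RNT-1 fused at its C terminus to GFP and FLAG, and both were precipitated with an antibody against GFP. The labels do not name the cells in which the transgene is active, and the files hold no expression values, so the cell types behind a peak cannot be told apart. There was 1 group and no second condition, so core peaks are described beside the other nuclear peaks of the same list.

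The genome of C. elegans encodes a single RUNX protein, RNT-1. RUNX proteins bind the core TGTGGT or TGCGGT through their conserved Runt domain, and a partner of the CBF-beta type, BRO-1 in the worm, strengthens this binding. In C. elegans the pair is known for keeping seam cells, lateral epidermal cells with stem cell character, dividing in the right pattern. The core is short and occurs at many places in a genome. The nuclear genome held 56016 cores, and 316 of them, or 0.564%, lay whole within 50 bp of an IDR summit.

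The sequences around the summits are shown for 6 of the 20 strongest core peaks, as examples of how far a core lay from the summit, with the cores in capitals. They are not the top 6 by signal, and stronger peaks than some of them are described below without their sequence. TGTGGT and TGCGGT are cores read on the plus strand, and ACCACA and ACCGCA are the same cores read on the minus strand. Each run covers the summit and 50 bases on each side, so the summit is the middle base.
ain-1 (chrX:16612434-16612534, ce11, plus strand): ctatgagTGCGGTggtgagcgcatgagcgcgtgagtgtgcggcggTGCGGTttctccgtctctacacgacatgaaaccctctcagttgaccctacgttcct
ftt-2 (chrX:11605899-11605999, ce11, plus strand): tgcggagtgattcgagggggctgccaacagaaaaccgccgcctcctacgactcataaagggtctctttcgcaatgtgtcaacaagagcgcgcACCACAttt
Y17G7B.17 (chrII:12102534-12102634, ce11, plus strand): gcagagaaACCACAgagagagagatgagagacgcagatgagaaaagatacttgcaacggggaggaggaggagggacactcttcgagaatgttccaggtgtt
tos-1 (chrV:9344238-9344338, ce11, plus strand): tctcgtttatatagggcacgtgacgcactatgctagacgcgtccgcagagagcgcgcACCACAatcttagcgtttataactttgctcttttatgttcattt
madd-3 (chrX:14288010-14288110, ce11, plus strand): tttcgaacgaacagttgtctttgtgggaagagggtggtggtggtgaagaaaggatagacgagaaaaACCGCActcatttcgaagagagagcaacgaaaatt
mdl-1 (chrX:6742083-6742183, ce11, plus strand): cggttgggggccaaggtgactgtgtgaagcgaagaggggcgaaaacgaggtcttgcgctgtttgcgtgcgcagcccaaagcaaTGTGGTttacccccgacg

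Peaks in which a core covered the summit base itself are shown next, to set an exact match of core and summit beside the wider spread above. The unc-70 and atf-2 peaks lay outside any protein-coding start window and are named for the nearest start. The last peak shown, 486 bp upstream of C04C11.25, lies on the tRNA-Glu gene rte-1.
hsp-1 (chrIV:17278526-17278626, ce11, plus strand): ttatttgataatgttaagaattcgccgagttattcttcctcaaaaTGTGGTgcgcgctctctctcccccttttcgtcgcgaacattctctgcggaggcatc
unc-70 (chrV:6879569-6879669, ce11, plus strand): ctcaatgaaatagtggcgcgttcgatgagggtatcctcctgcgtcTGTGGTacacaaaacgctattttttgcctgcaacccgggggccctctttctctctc
atf-2 (chrII:8749250-8749350, ce11, plus strand): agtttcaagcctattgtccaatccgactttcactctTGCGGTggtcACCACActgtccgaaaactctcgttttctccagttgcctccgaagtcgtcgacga
C04C11.25 (chrX:14015902-14016002, ce11, plus strand): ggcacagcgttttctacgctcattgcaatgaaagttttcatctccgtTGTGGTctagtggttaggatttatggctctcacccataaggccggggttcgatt

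Peaks with several cores are shown to illustrate their arrangement. The F46B3.23 peak has the most cores, in a tandem array in which TGCGGT recurs every 11 bp, and sulp-3 and din-1 are pairs on the same and on opposite strands from among the strongest peaks.
F46B3.23 (chrV:20605979-20606079, ce11, plus strand): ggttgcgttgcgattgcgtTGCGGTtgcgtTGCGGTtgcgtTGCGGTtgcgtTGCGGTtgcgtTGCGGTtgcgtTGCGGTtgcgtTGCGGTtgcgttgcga
sulp-3 (chrX:8404419-8404519, ce11, plus strand): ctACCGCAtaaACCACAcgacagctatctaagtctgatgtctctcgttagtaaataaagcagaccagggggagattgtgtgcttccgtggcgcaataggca
din-1 (chrII:11635184-11635284, ce11, plus strand): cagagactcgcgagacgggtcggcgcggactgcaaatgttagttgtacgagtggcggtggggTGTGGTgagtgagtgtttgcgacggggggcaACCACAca

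The strongest core peak lay on the X chromosome, 967 bp upstream of the start of ain-1, which encodes a GW182-type protein of the microRNA silencing complex. Its signal, a score given by the authors with no stated scale, was 923 in the IDR list, 564 in replicate 1 and 361 in replicate 2. It ranked 3 in both replicate lists. It held a pair of TGCGGT cores on the same strand, with centres 38 bp apart, and the inner core covered the summit. The peak 530 bp upstream of ftt-2, a gene for a 14-3-3 protein, had a signal of 776 in the IDR list, with 513 in replicate 1 and 261 in replicate 2. Its only core was a TGTGGT centred 44.5 bp from the summit, close to the edge of the 50 bp window.

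The next core peaks came from genes of varied function. A peak at the shared start region of hsr-9, which encodes a protein related to 53BP1, and rps-19, a protein of the small ribosomal subunit, had 543, with 322 in replicate 1 and 213 in replicate 2. The peak nearest to Y17G7B.17 had 514 and lay 2595 bp upstream of that start. The peak in an intron of F55C5.17 had 471, and its core lay inside the snoRNA gene C51F7.4. The tos-1 peak, 85 bp upstream of the start, had 447, with 277 in replicate 1 and 167 in replicate 2. The peak 456 bp upstream of lin-59, which encodes a SET-domain protein of the Ash1 type, had 431. It held a pair of TGCGGT cores on the same strand, with centres 13 bp apart. Replicate 1 gave the higher signal for each of these peaks with both values printed here, and the scales of the lists were not stated, so the lists are compared by rank.

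Further down the 20 strongest core peaks, madd-3 had 404, with its core 18.5 bp from the summit, and sulp-3, a sulfate permease family gene, had 396. The peak nearest to din-1, which encodes a nuclear co-repressor of the SHARP family that binds DAF-12, had 390. T13C5.6 had 389, and mdl-1, a gene for a Mad-like bHLH protein, had 356. A single peak of 348 lay within the start windows of cux-7, C07H6.2 and lig-4, the DNA ligase IV gene. The soem-1 intron peak had 345, and a peak 10813 bp from the nearest start, that of Y37A1B.7, had 342. A peak at C28G1.2 and sec-15, an exocyst subunit gene, had 333. The last members of the 20 were C46C2.5 and dhs-8, both at 329, sms-2, a sphingomyelin synthase gene, also at 329, and gtr-1 at 315. These 20 peaks took ranks 3 to 82 among the nuclear peaks by signal.

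Cores were spread over the 50 bp window and densest near its middle. The nearest core was centred at a median of 18.5 bp from the summit, with an interquartile range of 9.5 to 30.5 bp. It was centred within 10 bp in 74 peaks, within 20 bp in 151 and within 30 bp in 210. The core covered the summit base in 23 peaks. The strongest of these after ain-1 was that of hsp-1, a gene for a constitutive Hsp70 chaperone, at 268. Next came the peaks nearest to unc-70, which encodes beta-spectrin, at 247, and to atf-2, a bZIP factor gene, at 207. The rte-1 peak near C04C11.25 had 200. The last peaks inside the window were at ttb-1 and W04D12.1, each with a core centred 47.5 bp away and signals of 121 and 100.3. The first peaks outside were at Y17D7C.6 and taf-11.2, with a core centred 48.5 bp away and signals of 168 and 107. The median distance follows the window, since the members were chosen by it, and it was 11.5 bp with a window of 25 bp and 32.5 bp with a window of 100 bp.

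Beyond the window, the count of cores fell with distance from the summit. Over all 1923 nuclear IDR peaks, the mean number of cores per 10 bp bin was 32.3 within 50 bp, 20.3 from 50 to 100 bp, 13.6 from 100 to 200 bp and 10.9 from 200 to 500 bp. The TGCGGT form went from 15.1 within 50 bp to 3.78 at 200 to 500 bp, and TGTGGT from 17.2 to 7.10. The strongest regions of each replicate list, as many as there were IDR peaks, gave 31.0 and 10.6 for replicate 1 and 30.9 and 11 for replicate 2 over the same distances. Base composition moved with this profile. Of the 101 bp windows centred on the 1923 summits 9.20% were under 40% G+C, and of the 3846 windows centred 300 bp away 71.7% were. Between peaks at their summits it differed little. The G+C content of the 101 bp window was at a median of 50.5% in core peaks and 49.5% in the other nuclear peaks.

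**Figure D1:**
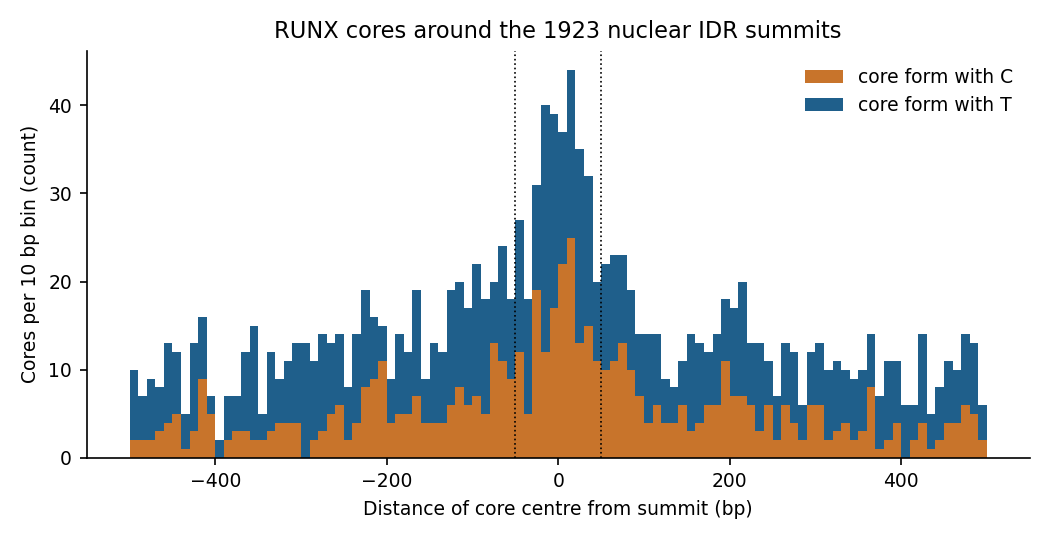
Cores per 10 bp bin (count, vertical axis) by the distance of the core centre from the summit (bp, horizontal axis) over the 1923 nuclear IDR peaks, split into the 2 forms of the core, with dotted lines at 50 bp on each side. Within 50 bp the bins averaged 32.3 cores, and from 200 to 500 bp they averaged 10.9.

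Within ranges of G+C, core shares at summits were above those in windows 300 bp away. For windows of 45 to 50% G+C, 17.5% of the IDR summits held a core (95% Wilson interval 14.3 to 21.1, n = 487), against 9.50% of the windows 300 bp away (6.81 to 13.1, n = 337). For 50 to 55% G+C the shares were 16.5% (13.6 to 19.9, n = 534) and 9.79% (5.92 to 15.8, n = 143). For windows under 40% G+C they were 9.60% (6.08 to 14.8, n = 177) and 4.32% (3.62 to 5.14, n = 2757). For 55% and above they were 14.99% (11.8 to 18.9, n = 387) and 10.1% (5.00 to 19.5, n = 69). The intervals were apart for 45 to 50% and for under 40% G+C, and they overlapped for the other ranges printed here. Wilson intervals cover counting error only, and a window's own core adds to its G+C.

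The forms of the core were more evenly represented at and around summits than in the genome. Of the 316 cores, 168 were TGTGGT, or 53.2% (47.7 to 58.6), and 148 were TGCGGT. The TGTGGT form made up 69.99% of the cores of the nuclear genome and 65.2% of the 652 cores lying 200 to 500 bp from IDR summits. From 50 to 100 bp, outside the member window, the forms were also close, with 107 TGTGGT and 96 TGCGGT among 203 cores. The part of base composition in the shares of the forms was not tested. In 151 core peaks every core was TGTGGT, in 123 every core was TGCGGT, and 11 held both. The core lay on the plus strand in 170 cases and on the minus strand in 146, and 152 cores were centred to the left of the summit and 164 to the right.

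Bases around the core also differed from those beside distant cores. At the base after the core, the difference lay mainly in the TGTGGT form. Reading each core in the direction TGTGGT or TGCGGT, the next base was G in 36.1% of the 316 cores at summits and in 27.5% of the 652 cores 200 to 500 bp away. It was A in 11.7% (8.62 to 15.7) at summits and in 20.1% (17.2 to 23.3) farther out, and it was T in 26.9% (22.3 to 32.04) and 33.4% (29.9 to 37.1). The intervals for A were apart and those for T overlapped. By form, G followed TGTGGT in 45.8% of the cores at summits and 28.9% of those farther out. It followed TGCGGT in 25% and 24.7%. An A followed TGTGGT in 10.1% and 22.4%, and TGCGGT in 13.5% and 15.9%. Each repeat copy in the F46B3.23 peak was counted as a core. The base at position 3 before the core was G in 31.6% of the cores at summits and in 19.02% of those farther out. Shifts in A were as large away from the base after the core. At position 3 before the core, A made up 19.3% at summits and 32.5% farther out. At the last of the 6 positions after the core, A made up 19.3% and 33.1%. G and C together were more frequent at the positions beside the summit cores, as in the windows as a whole, and the part of base composition in these shares was not tested.

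Most core peaks held a single core. There was 1 core in 259 peaks, a pair in 25 and 7 in 1, so 26 peaks, or 9.12% (6.30 to 13.0), held at least 2. In the 25 pairs, the cores lay on the same strand in 16 and on opposite strands in 9. Their spacing, taken from core centre to core centre, ran from 5 to 56 bp with a median of 22 bp. A core has 6 bases, so cores spaced by 5 bp overlap and are not separate sites. This was so at vang-1, Y41D4A.7 and mak-2, which are counted among the pairs. Of these pairs, 8 held TGCGGT alone, 6 held TGTGGT alone and 11 had 1 of each form. On the X chromosome lay 13 of the 26 peaks. The median signal was 151 in peaks with several cores and 141 in those with 1.

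The peak with 7 cores lay in an intron of F46B3.23 on chromosome V, with a signal of 215. Its cores all had the form TGCGGT on the plus strand and followed each other every 11 bp, as the printed sequence shows, so they are copies of a repeat and not independent sites. After ain-1, lin-59, sulp-3, din-1 and T13C5.6, the strongest pair was at vang-1, a planar cell polarity gene, with 272 and overlapping cores centred 5 bp apart. Next was the pair nearest to sli-1, the Cbl gene, with 230 and cores 38 bp apart. The pair nearest to atf-2 lay on opposite strands 10 bp apart, the outer core 11.5 bp and the inner 1.5 bp from the summit. A weaker pair lay nearest to elt-1, the gene of an epidermal GATA factor, on chromosome IV with a signal of 114 and cores 48 bp apart on opposite strands. Other pairs lay nearest to gln-1, a glutamine synthetase gene (159), sca-1, the SERCA calcium pump gene (99.1), and mak-2, a gene for a MAPKAP kinase (111).

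Signals of core peaks and of the other peaks covered much the same range. The median was 141 (interquartile range 114 to 197) in core peaks and 137 (112.2 to 181) in the others. Core peaks ran from 95.8 to 923, and the others from 95.8 to 1809. The difference of the medians was 4.55, and the interval of the core-peak median, taken from its order statistics, placed it between -1.31 and 15.6. The size and sign changed with the peaks and list used. Among the strongest regions of replicate 1 alone the difference was -1.49, with an interval from -5.46 to 3.34. That value is in the signal of the replicate 1 list, so its size cannot be set beside 4.55. Within the stronger part of the IDR list the difference was 10.01 (-3.86 to 22.3). With the same core required at both replicate summits, 198 core peaks remained and it was 11.4, with an interval from 1.48 to 24.6. The other peaks then took in the core peaks that failed this rule. The rule also asks for a stable summit, which was not asked of the other peaks, so 11.4 is not a contrast of core alone. Cores were more frequent among the very strongest peaks. Of the 100 nuclear peaks with the highest signal 23% held a core (15.8 to 32.2), and the share was 16.8% (13.4 to 20.7) for ranks 101 to 500, 14.2% for ranks 501 to 1000, 13.2% for ranks 1001 to 1500 and 13.7% for ranks 1501 to 1923. These intervals overlapped.

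Both replicates held regions at all 285 core peaks. Of the other 1638 nuclear peaks, replicate 1 held regions at all and replicate 2 at 1637. In replicate 1, 256 core peaks (89.8%) were among the strongest regions, as many as there are IDR peaks, against 86.7% of the other nuclear peaks. In replicate 2, 241 core peaks (84.6%) were, against 83.8% of the others. In both replicates at once this was so for 213 core peaks, or 74.7% (69.4 to 79.4), and for 71.7% (69.5 to 73.9) of the other nuclear peaks. Spearman's correlation of the replicate signals was 0.66 over the 285 core peaks and 0.61 over 1637 others, as a description of peaks that share their libraries. The replicate summit lay at a median of 9 bp from the IDR summit in replicate 1 and 12 bp in replicate 2. For the other nuclear peaks these medians were 10 and 13 bp. A core lay within 50 bp of replicate 1's own summit in 239 core peaks, of replicate 2's own in 241, of both in 204 and of neither in 9. The F09A5.3 peak was an example of a summit that moved between lists. Its core lay 22.5 bp from the IDR summit and from the replicate 2 summit but 88.5 bp from that of replicate 1.

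**Figure D2:**
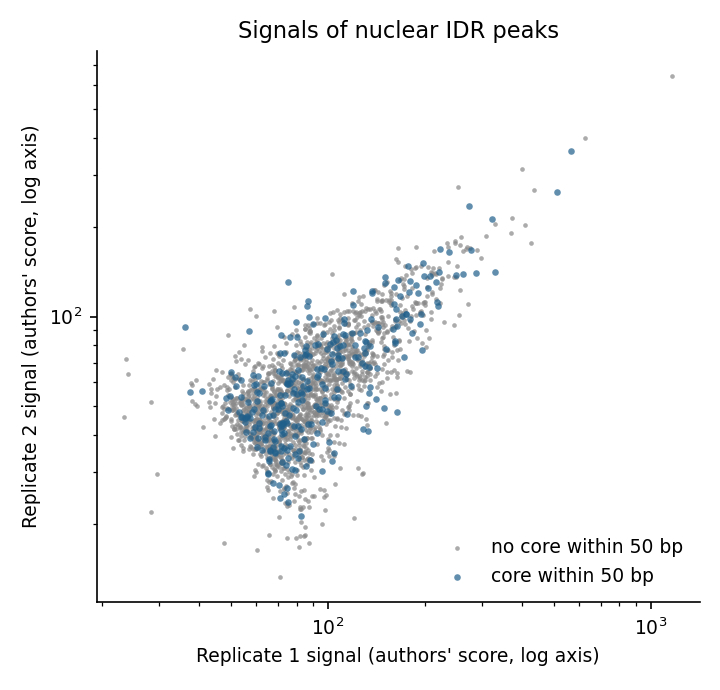
Signal in replicate 1 (horizontal) against signal in replicate 2 (vertical), both the authors' score on log axes, with 1 point per nuclear IDR peak and core peaks in blue. Core peaks lie throughout the cloud of the other peaks, and the highest of them is ain-1 at 564 and 361.

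By position, 146 core peaks (51.2%, 45.4 to 56.98) had their summit at a protein-coding gene start, from 1000 bp upstream to 200 bp downstream of an annotated start. This share was 55.9% (53.5 to 58.3) for the other nuclear peaks. Introns held 42 core peaks (14.7% against 16.9%), UTRs 4 and coding exons 2. The regions between protein-coding genes held 91, or 31.9% (26.8 to 37.6), against 25.9% (23.9 to 28.1). The intervals overlapped for start windows, introns and regions between genes. Core peaks lay less often at start regions shared by at least 2 protein-coding genes, with 31 such peaks, or 10.9% (7.77 to 15.03), against 17.6% (15.8 to 19.5) of the others, and these intervals were apart. The nearest protein-coding start was at a median of 814 bp for core peaks and 603 bp for the others. Gene starts of no kind, coding or non-coding, lay in the window of 67 core peaks.

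**Figure D3:**
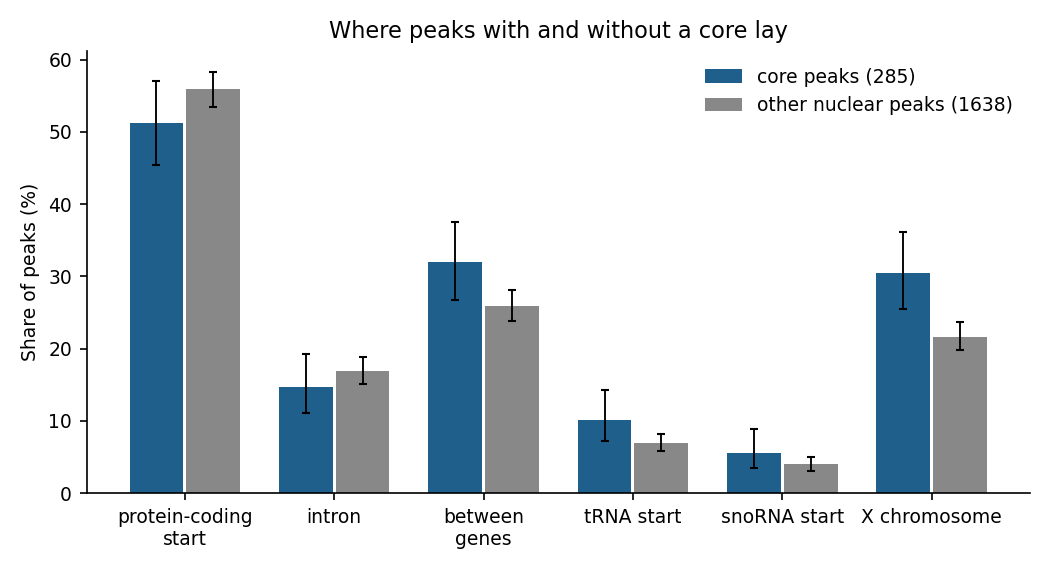
Share of peaks (%, vertical axis) in 6 classes of position for the 285 core peaks and the 1638 other nuclear peaks, with bars for 95% Wilson intervals that cover counting error only. The classes overlap, since a peak can count under a tRNA start, a location and the X chromosome at once. The intervals are apart for the X chromosome, at 30.5% and 21.7%.

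The strongest core peaks in introns, after F55C5.17, sulp-3 and soem-1, were those of F09A5.3 at 288 and cul-6, a cullin gene, at 277. The F09A5.3 peak lay 324 bp upstream of the start of mir-54, with mir-55 and mir-56 following at 494 and 631 bp, members of a microRNA cluster. The sulp-3 and cul-6 peaks lay at tRNA starts, those of F41D9.t3 and K08E7.t1. Between genes, the strongest were nearest to Y17G7B.17, din-1, Y37A1B.7, C46C2.5 and dhs-8. The din-1 peak covered the start of the snoRNA gene ZK20.9, with both of its cores inside that gene, and the C46C2.5 peak lay 32 bp upstream of the snoRNA gene C46C2.8. Positions called introns or between genes thus included starts of short non-coding genes.

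The X chromosome held 87 core peaks, or 30.5% (25.5 to 36.1), against 21.7% (19.7 to 23.7) of the other nuclear peaks. Read the other way, 19.7% (16.2 to 23.6) of the nuclear IDR peaks on X held a core, and on the autosomes the shares ran from 11.9% on chromosome I to 16.4% on chromosome V. Cores themselves were denser on X, at 625 per Mb against 544 per Mb on the autosomes. Per 10000 cores, 90.3 lay at an IDR summit on X and 48.1 on the autosomes. Nuclear IDR peaks, with or without a core, were also denser on X, at 24.9 per Mb against 17.9 per Mb on the autosomes. Peaks at tRNA starts moved with the X share of core peaks, as 19 of the 29 core peaks at tRNA starts lay on X. Without peaks at tRNA starts, the X share was 26.6% (21.5 to 32.3) in core peaks and 19.6% (17.7 to 21.7) in the others, and the intervals overlapped slightly. By location, X held 27.4% (20.8 to 35.1) of the core peaks at protein-coding starts against 18.6% (16.2 to 21.2) of the others there. Between genes the shares were 40.7% (31.1 to 50.9) and 29.6% (25.5 to 34.2), and in introns 21.4% (11.7 to 35.9) and 18.8% (14.6 to 23.8). The intervals overlapped in each of these 3 locations. The ain-1, ftt-2, madd-3, sulp-3, T13C5.6, mdl-1, C28G1.2, sms-2 and gtr-1 peaks were the X-linked members of the 20 strongest.

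**Figure D4:**
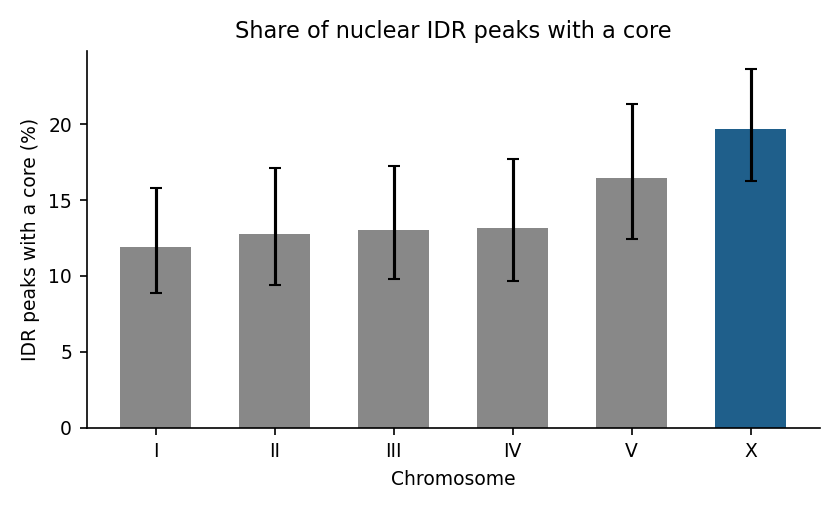
Share of nuclear IDR peaks with a core (%, vertical axis) on each chromosome, with 95% Wilson intervals that cover counting error only. The share was 19.7% on X, in blue, and from 11.9% to 16.4% on the autosomes in grey, and of the autosomes all but chromosome I had an interval that overlapped that of X.

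Core peaks lay at the starts of 36 of 612 tRNA genes. These made up 29 peaks, or 10.2% (7.18 to 14.2) of the core peaks, against 6.90% (5.77 to 8.23) of the others. In 18 of the 29 the core overlapped a tRNA gene itself, with 19 cores in all, each on the strand of the gene. A whole TGTGGT lay from base 6 of the gene in 14 cases, 4 cores started 3 bases before the gene and ran into it, and 1 ran past its end. The base 6 cores fell in 12 tRNA-Glu genes and 2 tRNA-Val genes. The strongest were C28G1.t1 at 333, T26C11.t1 at 215 and rte-1 at 200, all tRNA-Glu genes on the X chromosome, and in the printed C04C11.25 sequence the tRNA gene begins 5 bases before the capitals.

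The core belongs to the sequence of most tRNA-Glu genes, whether bound or not. Of 41 tRNA-Glu genes 40 held a core, 13 had any IDR peak at the start and 12 of those were core peaks. With any IDR peak counted, 31.7% of the tRNA-Glu genes were bound and 25.7% of all tRNA genes. By content, 15 of the 157 tRNA genes with any IDR peak at the start held a whole core, or 9.55%, beside 8.99% of all 612. Genes of 1 tRNA type are near-identical copies, and how reads that match several copies were placed is not given in the sources used here, so the signal of a single tRNA gene is uncertain. Leaving out the peaks at tRNA starts left 256 core peaks.

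Other short non-coding genes were fewer. Of 346 snoRNA genes 84 had any IDR peak at the start and 17 had a core peak. These made up 16 peaks, or 5.61% (3.48 to 8.92) of core peaks against 3.97% (3.13 to 5.03) of the others. The strongest were at C51F7.4, ZK20.9 and C46C2.8. There were 5 cores inside snoRNA genes, among them those of H09I01.2 at a signal of 207 and D2021.6 at 111. Of 261 microRNA genes 36 had any IDR peak at the start and 4 had a core peak. These were mir-54, mir-55 and mir-56 through the F09A5.3 peak and mir-2 through a peak of 157. The share was 0.702% of core peaks against 1.40% of the others. The 12 IDR peaks at snRNA starts held no core, and they are too few to be told apart from the 14.8% over all nuclear peaks. Genes annotated as ncRNA, a large class of short transcripts, had a start at 84 core peaks, or 29.5% (24.5 to 35.01) against 25.21% of the others. Core peaks also lay at the starts of 17 of 15363 piRNA genes, 6 of 2128 pseudogenes and 2 of 194 lincRNA genes, of which 149, 19 and 14 had any IDR peak there. For piRNA starts the share was 2.81% of core peaks against 3.17% of the others, and for lincRNA starts 0.702% against 0.733%. For pseudogene starts it was 2.11% (0.968 to 4.52) against 0.855% (0.510 to 1.43), and these intervals overlapped.

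At protein-coding starts, 178 of the 19973 nuclear protein-coding genes (0.891%) had a core peak, and 1351 (6.76%) had any IDR peak. The core-peak genes were thus 13.2% of the bound genes, close to the 14.8% of peaks that held a core. Summits lay upstream of the start in 166 of 179 pairs of a core peak and a gene, at a median of 261 bp upstream. Of 35 lists of genes by function or tissue, 16 had at least 1 gene with a core peak at the start, 26 genes in all, and 152 core-peak genes were in no list. The lists were drawn up with earlier results from these data known, so their counts are descriptions. Each gene list's core-peak genes are to be read against the 0.891% over all genes and against its own share of genes with any peak.

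Genes of the cytosolic ribosome and of muscle had the most core peaks in absolute number. Of 81 cytosolic ribosomal protein genes 39 had any IDR peak and 4 a core peak, which is 10.3% of the bound ones. After rps-19, these were rps-13 at 164, rps-3 at 157 and rps-17 at 109, with summits 224, 368 and 251 bp upstream. The rps-19, rps-13 and rps-3 peaks lay at shared start regions, each nearer to the start of the other gene. These were hsr-9, nfx-1 and sna-3, with the summits 162, 158 and 224 bp upstream. Of 41 body wall muscle genes 25 were bound and 3 had a core peak, or 12% of the bound ones. They were unc-89, which encodes a giant protein of the M-line, at 173 with its core 7.5 bp from the summit, act-3, an actin gene, at 165, and tnt-2, a troponin T gene, at 127. Both shares were near the 13.2% over all bound genes.

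Among other genes of gene expression and protein upkeep, the TFIID subunit gene taf-12 had the strongest core peak at 309, 925 bp upstream, and was the only core-peak gene among 9 bound of 45 in its list. Chaperone genes had 2 core peaks among 22 bound of 67, at hsp-1 with 268 and at dnj-5, a J-domain gene, with 127. Translation factor and tRNA synthetase genes had eef-1A.2, an elongation factor gene, at 164 and tars-1, the threonyl-tRNA synthetase gene, at 107, among 16 bound of 71. Splicing factor genes had asd-1, of the Fox-1 family, at 160 and rsp-3, an SR protein gene, at 99.5, among 14 bound of 43. The proteasome had rpn-2 at 126, among 7 bound of 33. The energy genes had atp-4, an ATP synthase subunit gene, at 166 and sdha-1, a succinate dehydrogenase gene, at 111, among 21 bound of 60. The sdha-1 peak is the same peak as that of the snoRNA gene D2021.6, inside which its core lay. Each of these lists held at most 2 genes with a core peak. The tars-1, rsp-3 and rpn-2 peaks also lay in the start window of another gene. The tars-1 summit lay 377 bp upstream of tars-1 and 158 bp upstream of kel-1. The rsp-3 summit lay 259 bp upstream of rsp-3 and 137 bp upstream of spin-4.

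Among developmental genes, ain-1 was the only 1 of 19 heterochronic genes with a core peak, among 9 bound. In Wnt signalling, vang-1 at 272 was the only 1 of 31, with 4 bound. The axon gene unc-76, of the FEZ family, had 244, among 3 bound of 29 in its list. The Hox regulator sop-2 had 99.6, among 6 bound of 18, and the synMuv gene lin-15B had 113, among 7 bound of 21. None of 25 seam and epidermal regulator genes had a core peak at the start, with 7 bound, and the same was true of 5 genes for the RUNX complex and its Groucho co-repressors, with 1 bound. With so few bound genes, counts of 0 or 1 cannot be told apart from the 13.2% of bound genes with a core peak over all genes. Cuticle genes had none among 228, with 10 bound. Nuclear hormone receptors had nhr-41 at 138, whose peak lay at a tRNA-Glu start, among 13 bound of 274 genes. Chemoreceptor genes had srh-16 at 194 and srz-42 at 118, among 9 bound of 1299 genes, and F-box genes had fbxa-83 at 99.6, among 5 bound of 315. Both chemoreceptor peaks also lay in the start window of another gene. The srz-42 summit lay 904 bp upstream of srz-42 and 632 bp upstream of H12I19.115.

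RNT-1's own gene, that of its partner and the cell cycle inhibitor gene cki-1, which genetic work in C. elegans has placed downstream of rnt-1, had no core peak at their starts. The nearest core peak lay 85751 bp from rnt-1, 305590 bp from bro-1 and 25702 bp from cki-1. In the longer pooled list, which keeps background regions, a region at the cki-1 start had a signal of 73.1, below the lowest IDR peak, and no core at its summit. A region at bro-1 had 33.8, also with no core there, and rnt-1 had none.

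Other short words were about as frequent in core peaks as in the rest. GAGAGA, read on either strand, lay within 50 bp of the summit in 29.8% (24.8 to 35.4) of core peaks and 29.7% (27.6 to 31.99) of the others. ACGCAG lay in 14.7% against 14.1%, and AAAAAT in 14.4% against 15.8%. The GATA words AGATAA and TGATAA lay each in 4.91% of core peaks, against 5.68% and 3.48%. GGTTCGA, found in the internal promoter of tRNA genes, lay in 5.26% (3.22 to 8.50) against 3.48% (2.70 to 4.48). Its first bases, GGT, can be the last of a core. With the bases of cores left out, its share in core peaks was 4.21% (2.42 to 7.21). For each of these words the intervals of core peaks and other peaks overlapped.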

How the data were processed

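ChIP-seq of GFP-tagged RNT-1 was measured in 2 biological replicates of 1 group. Per the labels' file descriptions, the deposited files are narrowPeak region lists: 1 per replicate and 1 for both pooled, all with background regions kept and a control alignment named, and 1 shorter list thresholded by IDR. The lists of replicate 1, replicate 2 and both pooled held 18427, 21390 and 19793 regions and the IDR list 1931, with a median peak width of 436 bp. How reads were aligned and peaks called, and at which IDR threshold, is not given in the sources used here. Region signals are a score that the authors deposited on an unstated scale, used only to rank and describe regions within a list. The deposited summit offset was used as given. Read depth is unknown from these lists. The labels' antibody field reads rnt-1, while the sample notes name anti-GFP, which was followed.

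Cores were searched on both strands of ce11 (WBcel235) in the 101 bp around each summit, and positions are 1-based. Genes came from Ensembl release 115, and tRNA types from the RefSeq annotation of the same assembly, by coordinates. Python 3.11.15, numpy 2.4.6, scipy 1.17.1 and matplotlib 3.10.9 were used. The core search was tested on simulated sequence. Shares carry 95% Wilson intervals, which cover counting error only. No test was made, since there was 1 group and peaks are not replicates. Locations were assigned by protein-coding genes alone, start windows being taken before coding exons, UTRs, introns and the space between genes.

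The members, gene lists and named genes were chosen with earlier results of these data known. Named genes were those at the 20 strongest core peaks, peaks with at least 3 cores, up to 4 core-peak members of each list, up to 3 genes of each kind of non-coding gene, the 5 strongest intronic and the 5 strongest intergenic core peaks, peaks at the edge of the window and the 5 strongest peaks with a core over the summit, with rnt-1, bro-1 and cki-1. The other peaks with paired cores, lincRNA genes and some snoRNA genes fall outside this rule, and those named were chosen after their values were seen. The G+C ranges and the split by tRNA type were also chosen after values were seen. In the lists, 8 symbols were not found. Lists on ce10 were not used, because no ce10 genome was used here. Alternatives were other windows and core forms, each replicate alone, stronger peaks only, other start windows and leaving out peaks at tRNA starts.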

Additional observations from a re-analysis of the deposited data

Results flagged for a closer look

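Cores also lay at summits outside the IDR list, in regions that the report uses only for the cki-1 and bro-1 starts. Of the 17861 nuclear regions of the pooled list below the IDR peaks, 1429 held a core within 50 bp of the summit, or 8.001% (95% Wilson interval 7.61 to 8.41), against 14.8% of the IDR peaks. By signal rank in the pooled list, the share was 10.1% for ranks 1932 to 3862, 10.2% for ranks 3863 to 5793 and 6.89% for ranks 5794 to 7724. Below that it ran between 6.32% and 8.70%. The median G+C content moved with it, from 49.5% at the IDR summits to 40.6% at the end of the list. Counted over all 17861 of these weaker summits, cores averaged 159.3 per 10 bp bin within 50 bp and 106.45 per bin from 200 to 500 bp. These counts cannot be set directly beside those over the 1923 IDR summits. In the bin from 0 to 10 bp there were 9.74 cores per 1000 weaker summits and 19.2 per 1000 IDR summits. In windows of 45 to 50% G+C, 8.91% (8.01 to 9.91) of the weaker summits held a core and 17.5% (14.3 to 21.1) of the IDR summits. No control sample was at hand to set a background for these counts.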

How the results depend on the processing

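Counts followed the definition of a core. The 285 core peaks became 172 with a 25 bp window, 436 with a 100 bp window, 162 with TGTGGT alone, 134 with TGCGGT alone and 155 among the stronger part of the list. The genes with a core peak at the start, 178 in the report, became 116, 278, 94, 87 and 96 in the same order, and 279 when each core peak was given to its nearest protein-coding start. The median distance of the nearest core moved to 11.5 bp and 32.5 bp with the windows of 25 and 100 bp, which set it. The share of core peaks with at least 2 cores moved to 4.65% and 13.99% with these windows and to 3.70% with TGTGGT alone. The share at protein-coding starts moved to 37.9% with start windows of 500 bp to 100 bp and to 65.6% with 2000 bp to 500 bp. The X share stayed between 26.6% and 32.8% and the TGTGGT share between 50.3% and 53.5% under every alternative run.

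With the strongest regions of a single replicate in place of the IDR list, core peaks numbered 266 to 273, genes 174 to 179, the start share 52.01 to 53.01%, the X share 28.2 to 28.9%, the median distance 19.5 to 21 bp, the share with at least 2 cores 9.16 to 9.40% and the TGTGGT share 50.3 to 52.01%. The difference of median signal, 4.55 in the report, was -1.49 for replicate 1 and 3.59 for replicate 2. These are in each list's own signal, so they can be compared by sign and not by size. In the IDR list the difference was 10.01 within the stronger part. It was 11.4 with the same core required at both replicate summits, where core peaks failing this rule were counted among the other peaks. The sign and size of the difference thus rest on the peaks and list used, and the cause was not tested. Requiring the same core at both replicate summits left 198 core peaks, with a median distance of 16.5 bp, and without peaks at tRNA starts, an alternative chosen after seeing the data, 256 remained, with a TGTGGT share of 52.3%. No paired analysis was possible because there is 1 group and no contrast. Depth is unknown from these files and sets how many peaks pass the IDR threshold, and the signal's unstated scale limits comparisons to ranks within a list.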
